A study of Drosophila melanogaster with 6 samples.

Results

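Genes of the insulin pathway, 10 in number, were examined in RNA sequencing of fly heads. They were chosen by name, with earlier results of these data known. They are the insulin-like peptides *Ilp2*, *Ilp3*, *Ilp5* and *Ilp6*, the receptor *InR*, its adaptor *chico*, the transcription factor *foxo*, the translation repressor *Thor*, the peptide-binding protein *ImpL2* and the insulin target *tobi*. Of these 10 genes, 9 were matched by symbol to a row among the 17559 genes of the count files. The BDGP6.54 identifier of *InR* was not matched to a row, so the receptor was not analysed here.

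The libraries came from the control groups of a study of neuronal gene knockdown. The RT control (n = 3) carried the neuronal driver *Elav-GAL4* over *w[1118]* and was reared at room temperature. The Dicer2 25C control (n = 3) carried *Elav-GAL4* from another stock, with 1 copy of *UAS-Dicer2*, and was reared at 25°C. *UAS-Dicer2* adds an enzyme for cutting double-stranded RNA. Both groups shared the *w[1118]* background and the VDRC GD control stock, and neither carried an RNAi construct. Each library was a biological replicate by the study's methods, made from polyA RNA of a pool of 35 to 40 heads of female flies, whose age is not given in the sources used here. *Elav-GAL4* acts in neurons, while whole heads also hold glia, eye, muscle and fat body. Driver stock, *UAS-Dicer2*, rearing temperature and any batch of libraries changed together between the groups and cannot be told apart.

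In adult flies, insulin-producing cells of the brain release *Ilp2*, *Ilp3* and *Ilp5*, and the fat body makes *Ilp6*. The peptides bind the insulin receptor, which signals through the adaptor protein Chico and phosphatidylinositol 3-kinase to the kinase Akt. Akt keeps Foxo out of the nucleus, and when insulin signalling is low Foxo raises targets such as *Thor*. The pathway couples feeding to growth, metabolism, reproduction and lifespan.

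Reads counted on genes numbered 33898008 to 42487803 per RT library and 18651266 to 25183878 per Dicer2 25C library. Levels are given in CPM, counts per 1000000 library counts, scaled by the TMM method of edgeR, and 3 counts corresponded to at most 0.161 CPM, counting error only. The label check held: *Dcr-2* was at 58.0 ± 3.03 CPM in the RT control and 572 ± 57.6 CPM in the Dicer2 25C control (SD, n = 3 each). Replicate 1 of the RT control stood apart from the other RT libraries, with a chi-square per degree of freedom of 153 and 146 against each, while those 2 differed by 34.5. Replicate 3 of the Dicer2 25C control also stood apart within its group, at 86.5 and 53.7, where the other pair gave 32.2. This statistic grows with the number of counts, which was larger in the RT libraries, so its values are not compared between the groups. Alignments to more than 1 site numbered 69361668 in replicate 1 of the Dicer2 25C control and 7164088 to 8454145 in the other 5 libraries. This counter can take 1 read several times, so it is not a number of reads. These alignments were not counted on genes. Markers of neurons were summed to between 3153 and 3304 CPM in RT libraries, against 3126 to 4248 CPM in Dicer2 25C libraries. Of these, *nSyb* by itself was lower in every RT library, at 1230 to 1285 CPM against 1430 to 1736 CPM, while *elav*, *brp* and *Syt1* each overlapped. The sum of fat body markers was higher in every RT library than in the Dicer2 25C control. It ran from 34628 to 48233 CPM in RT libraries, against 16469 to 26048 CPM, while *Yp2* by itself overlapped between the groups. Most of that sum came from the yolk protein genes *Yp1*, *Yp2* and *Yp3*, with means 1.86, 1.57 and 2.50 times as high in the RT control. For *apolpp* and *Lsd-1* the means were 1.53 and 1.43 times as high there. Summed photoreceptor markers were lower in every RT library, at 37037 to 37828 CPM, against 45597 to 58689.9 CPM in the Dicer2 25C control. Most of that sum was *ninaE*, at 30975 to 31919 CPM in RT libraries and 38465 to 52700 CPM in the Dicer2 25C control. *norpA*, *trp* and *inaC* each overlapped between the groups. The sums of glia and muscle markers overlapped between the groups. Of the 5 fat body markers tested, 3 passed the test described next (*Yp3*, *apolpp* and *Lsd-1*), all higher in the RT control. None of the 4 photoreceptor markers or the 4 tested neuron markers passed that test. Over all tested genes, 5.28% passed as higher in the RT control and 4.83% as lower in it. Midgut markers summed to at most 0.366 CPM and ovary markers to at most 0.314 CPM in any of the 6 libraries. Testis markers summed to 149 to 160 CPM in RT libraries and 127 to 208.5 CPM in Dicer2 25C libraries. Nearly all of that was *bol*, while *fzo*, *Mst87F* and *dj* were each at most 0.785 CPM in any library.

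The groups were compared over 10187 genes with edgeR's quasi-likelihood test, and a gene passed at a Benjamini-Hochberg adjusted p under 0.05. Of the 9 members, 4 passed, all of them higher in the RT control: *Ilp2*, *Ilp6*, *foxo* and *tobi*. Over all tested genes the share that passed was 10.1% in either direction, 5.28% for genes higher in the RT control and 4.83% for genes lower in it. With a log2 fold change beyond 1 required as well, *tobi* was the only member that passed, against 2.82% of all tested genes (1.3% in the same direction and 1.52% in the opposite one). The 6 libraries did not overlap between the groups for 5 members, the same 4 and *Thor*, each higher in the RT control, and 19.5% of all tested genes had that order, with 18.0% in the opposite order. The median log2 fold change of the 9 members was 0.46, while it was 0.00 over all tested genes. The members were chosen with earlier results of these data known, so these comparisons with all tested genes are a description only. Without replicate 1 of the RT control 4 members passed, and without replicate 3 of the Dicer2 25C control 5 did. Without replicate 3 of the RT control or replicate 2 of the Dicer2 25C control, 1 member passed, *Ilp6*.

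**Figure D1:**
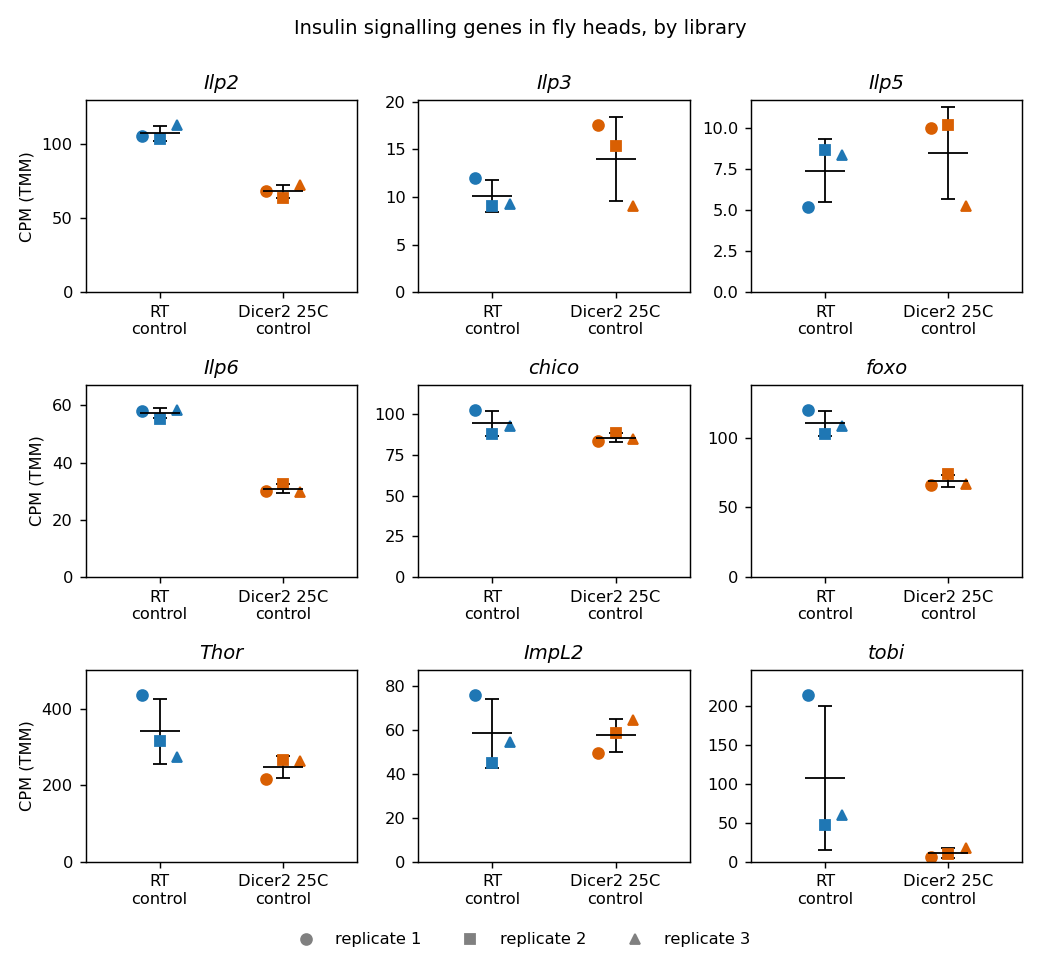
Levels of the 9 matched insulin signalling genes in each library, in CPM on linear axes that start at 0, with the RT control on the left and the Dicer2 25C control on the right of each panel; symbols are replicates, and bars are the mean and SD of 3 libraries. *Ilp2*, *Ilp6*, *foxo*, *Thor* and *tobi* lie higher in all 3 RT libraries, while *tobi* in replicate 1 of the RT control, at 214 CPM, lies far above the other libraries.

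The genes of the brain peptides lie together. In BDGP6.54, *Ilp1*, *Ilp2*, *Ilp3*, *Ilp4* and *Ilp5* fall in that order within 25478 bases of chromosome 3L. *Ilp2* (FBgn0036046) runs from 9799698 to 9800440 on the plus strand. *Ilp3* (FBgn0044050) runs from 9801298 to 9802120 and *Ilp5* (FBgn0044048) from 9823349 to 9823897, both on the minus strand. None of these 3 genes shares exon bases with another annotated gene.

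Among the mRNAs of *Ilp2*, *Ilp3* and *Ilp5*, that of *Ilp2* was the most abundant here. Its levels were 105, 103 and 112 CPM in the RT control, against 68.3, 63.5 and 72.3 CPM in the Dicer2 25C control. Every RT library was above every Dicer2 25C library, and the replicates of each group lay close together. The mean was 107 ± 4.90 CPM in the RT control and 68.0 ± 4.42 CPM in the Dicer2 25C control (SD, n = 3 each). Its log2 fold change was 0.65 (standard error 0.07, adjusted p = 0.0092 edgeR). When replicate 3 of the RT control was left out it was 0.62 with an adjusted p of 0.051, and without replicate 2 of the Dicer2 25C control it was 0.60 with an adjusted p of 0.058, both from the same edgeR test. In whole heads, fewer cells of a type and less RNA per cell cannot be told apart.

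*Ilp3* and *Ilp5*, which the same cells make, did not follow *Ilp2*. *Ilp3* was at 12.0, 9.03 and 9.29 CPM in the RT control, against 17.5, 15.4 and 9.04 CPM in the Dicer2 25C control. Replicates 1 and 2 of the Dicer2 25C control were the highest libraries, and replicate 3 of that group was about level with the lowest RT library. Its log2 fold change was -0.47 (standard error 0.25, adjusted p = 0.25, edgeR). *Ilp3* passed only without replicate 3 of the Dicer2 25C control, among the 14 alternatives run, with a log2 fold change of -0.71 (adjusted p = 0.032, edgeR).

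*Ilp5* was at 5.19, 8.70 and 8.37 CPM in the RT control, against 9.998, 10.2 and 5.25 CPM in the Dicer2 25C control. Replicate 1 of the RT control and replicate 3 of the Dicer2 25C control were both low, so the groups overlapped. For *Ilp5* the log2 fold change was -0.19 (standard error 0.30, adjusted p = 0.71, edgeR) and 0.01 without replicate 1 of the RT control. The ranges of *Ilp3* and *Ilp5* within the Dicer2 25C control, 0.92 and 0.90 log2 units, were exceeded by 3.23% and 3.48% of all tested genes.

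Ratios within a library do not depend on how libraries are scaled. For every 100 *Ilp2* counts there were 11.4, 8.76 and 8.26 *Ilp3* counts in the RT control, against 25.7, 24.3 and 12.5 in the Dicer2 25C control. The ratio was lower in each RT library, and replicate 3 of the Dicer2 25C control lay nearer to the RT libraries than to the other replicates of its own group. *Ilp5* counts per 100 *Ilp2* counts were 4.92, 8.44 and 7.44 in the RT control, against 14.6, 16.0 and 7.25 in the Dicer2 25C control, and overlapped between the groups. Of the reads on the 3 genes together, *Ilp2* took 86.0%, 85.3% and 86.4% in the RT control, with 95% Wilson intervals from 84.3% to 87.4% over the 3 libraries. In the Dicer2 25C control it took 71.3% (interval 69.2% to 73.3%), 71.3% (69.4% to 73.1%) and 83.5% (81.8% to 85.1%). These intervals cover counting error only. The ratios are given as a description, with no test.

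**Figure D2:**
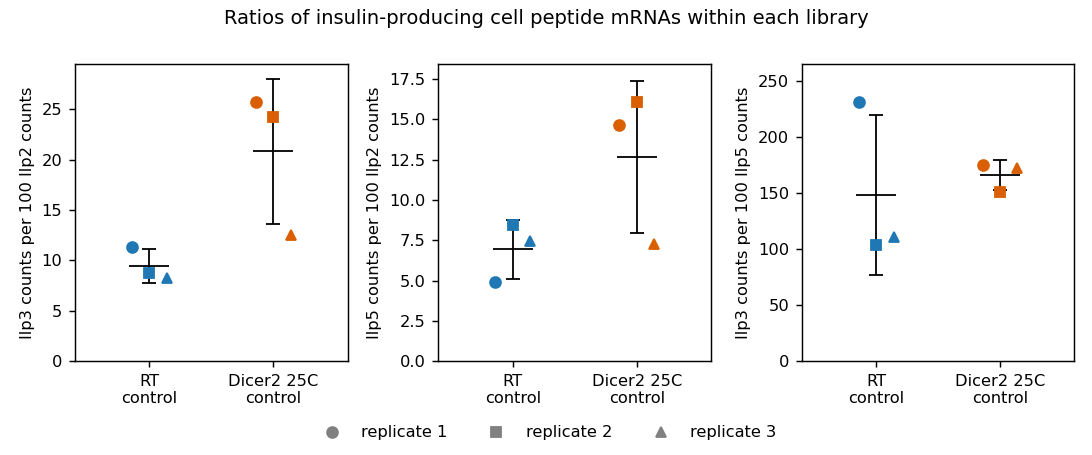
Counts of one insulin-like peptide gene per 100 counts of another within each library, with the RT control on the left and the Dicer2 25C control on the right; symbols are replicates, bars are mean and SD of 3 libraries, and axes start at 0. The *Ilp3* to *Ilp2* ratio runs from 8.26 to 11.4 in RT libraries and from 12.5 to 25.7 in Dicer2 25C libraries, while the other ratios overlap.

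The remaining insulin-like peptides were near the floor of these libraries or low. *Ilp1*, the neighbour of *Ilp2*, was at 1.19 to 1.68 CPM in the RT control and 1.20 to 1.49 CPM in the Dicer2 25C control. *Ilp8*, a relaxin-like peptide of damaged larval tissue, was at 0.396 to 0.427 CPM in the RT control and 0.262 to 0.426 CPM in the Dicer2 25C control. Neither passed the test (adjusted p = 0.92 and 0.75, edgeR). *Ilp4* had at most 4 counts in any RT library and at most 2 in any Dicer2 25C library, while *Ilp7* was at most 0.274 CPM in the RT control and 0.512 CPM in the Dicer2 25C control. Both were left out by the expression filter.

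*Ilp6* (FBgn0044047, chromosome X, 2331493 to 2334658, minus strand), which the fat body makes, though its source within these heads was not measured, was the member that differed most steadily. It was at 58.1, 55.2 and 58.3 CPM in the RT control, against 30.1, 32.6 and 29.8 CPM in the Dicer2 25C control. The replicates of each group were nearly equal, with a range of 0.08 log2 units in the RT control that 86.0% of all tested genes exceeded. The means were 57.2 ± 1.75 CPM in the RT control and 30.8 ± 1.54 CPM in the Dicer2 25C control (SD, n = 3 each). The difference was 0.89 on the log2 scale (standard error 0.07, adjusted p = 0.003, edgeR), and *Ilp6* ranked 15 by p among the 10187 tested genes. It passed under each of the 14 alternatives run, with log2 fold changes from 0.79 to 0.93.

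Of the 5 tested fat body markers, 3 also passed as higher in the RT control, as did 5.28% of all tested genes. *Yp1* and *Yp2* had log2 fold changes of 0.89 and 0.65 and did not pass (adjusted p = 0.083 and 0.22, edgeR). The lipoprotein gene *apolpp* was at 2891, 2676 and 2662 CPM in the RT control and at 1740.0, 1950.5 and 1699.7 CPM in the Dicer2 25C control. Per 100 *apolpp* counts there were 2.01, 2.06 and 2.19 *Ilp6* counts in the RT control, against 1.73, 1.67 and 1.75 in the Dicer2 25C control, so the mean ratio was 1.22 times as high in the RT control, where *Ilp6* itself was 1.86 times as high. Per 100 counts of the yolk protein gene *Yp1* the groups overlapped, at 0.413, 0.265 and 0.282 in the RT control and 0.426, 0.288 and 0.259 in the Dicer2 25C control. *apolpp* and *Yp1* were chosen as denominators after values had been seen. The part of the amount of fat body in the difference of *Ilp6* was not tested.

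The intracellular members came next. *chico* (FBgn0024248, chromosome 2L, 10242512 to 10247078, minus strand), the insulin receptor substrate, was at 103, 87.6 and 93.0 CPM in the RT control, against 83.3, 88.5 and 84.5 CPM in the Dicer2 25C control. Its groups overlapped, and the log2 fold change was 0.14 (standard error 0.08, adjusted p = 0.25, edgeR). An antisense RNA, *asRNA:CR44995*, shares 10.6% of the exon length of *chico*, and its own level was at most 0.122 CPM in any library; the strand setting of the counting is not given in the sources used here.

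*foxo* (FBgn0038197, chromosome 3R, 14056945 to 14087978, plus strand) encodes the transcription factor that insulin signalling restrains. It was at 120, 103 and 108 CPM in the RT control, against 65.9, 73.8 and 67.0 CPM in the Dicer2 25C control. The groups stood well apart, with means of 110.3 ± 8.72 CPM in the RT control and 68.9 ± 4.29 CPM in the Dicer2 25C control (SD, n = 3 each). Its log2 fold change was 0.68 (standard error 0.08, adjusted p = 0.011, edgeR). It was 0.69 with an adjusted p of 0.052 without replicate 3 of the RT control, and 0.73 with an adjusted p of 0.056 without replicate 2 of the Dicer2 25C control, in the same edgeR test. These are levels of *foxo* mRNA, and the place of the protein in the cell was not measured.

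*Thor* (FBgn0261560, chromosome 2L, 3478434 to 3479612, plus strand) encodes the 4E-BP that holds back translation and is a known target of Foxo. It was at 435, 315 and 272 CPM in the RT control, against 215, 267 and 263 CPM in the Dicer2 25C control. The lowest RT library lay only slightly above the highest Dicer2 25C library, and replicate 1 of the RT control was the highest. The log2 fold change of 0.46 (standard error 0.19) did not pass (adjusted p = 0.15, edgeR), and without replicate 1 of the RT control it was 0.24, with an adjusted p of 0.25. The other 13 alternatives gave adjusted p values between 0.078 and 0.35.

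*ImpL2* (FBgn0001257, chromosome 3L, 4224006 to 4236147, minus strand) encodes a secreted protein that binds insulin-like peptides and restrains them. It was at 76.1, 45.2 and 54.6 CPM in the RT control, against 49.6, 58.8 and 64.8 CPM in the Dicer2 25C control. The highest and the lowest of the 6 libraries were both RT libraries, so the groups overlapped fully. The log2 fold change was 0.02 (standard error 0.20, adjusted p = 0.95, edgeR) and -0.21 (adjusted p = 0.35) when replicate 1 of the RT control was left out. In BDGP6.54 a further gene on the same strand, *CG46460*, shares 61.9% of the exon length of *ImpL2* and was matched to no row of the counts, so reads of the 2 cannot be told apart.

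*tobi* (FBgn0261575, chromosome 3R, 25344761 to 25346921, minus strand) encodes an alpha-glucosidase that responds to insulin from the brain and to diet. It was at 214, 47.2 and 60.3 CPM in the RT control, against 6.12, 9.45 and 17.6 CPM in the Dicer2 25C control. Every RT library was above every Dicer2 25C library, and both groups spread widely. The mean was 107 ± 92.5 CPM in the RT control and 11.1 ± 5.91 CPM in the Dicer2 25C control (SD, n = 3 each). The log2 fold change was 3.27 (standard error 0.70, adjusted p = 0.037, edgeR), the 73rd in size among the 10187 tested genes. Only 0.599% of tested genes had a wider range than *tobi* within the RT control, and 1.17% within the Dicer2 25C control.

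Replicate 1 of the RT control did not carry the difference alone. Without it, the log2 fold change of *tobi* was 2.27 (standard error 0.38) and passed with an adjusted p of 0.022 in edgeR. The call was lost when replicate 2 or 3 of the RT control was left out (3.63 and 3.55, with adjusted p of 0.059 and 0.079). It was also lost when replicate 1 or 2 of the Dicer2 25C control was left out (2.98 and 3.16, with adjusted p of 0.12 and 0.14). Per 100 *apolpp* counts there were 7.39, 1.76 and 2.26 *tobi* counts in the RT control, against 0.352, 0.484 and 1.04 in the Dicer2 25C control. That ratio did not overlap between the groups, and its mean was 6.10 times as high in the RT control, or 3.23 times without replicate 1 of the RT control, an alternative chosen after the data were seen. *rha*, on the opposite strand, shares 3.71% of the exon length of *tobi* and was at most 0.745 CPM in any library.

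**Figure D3:**
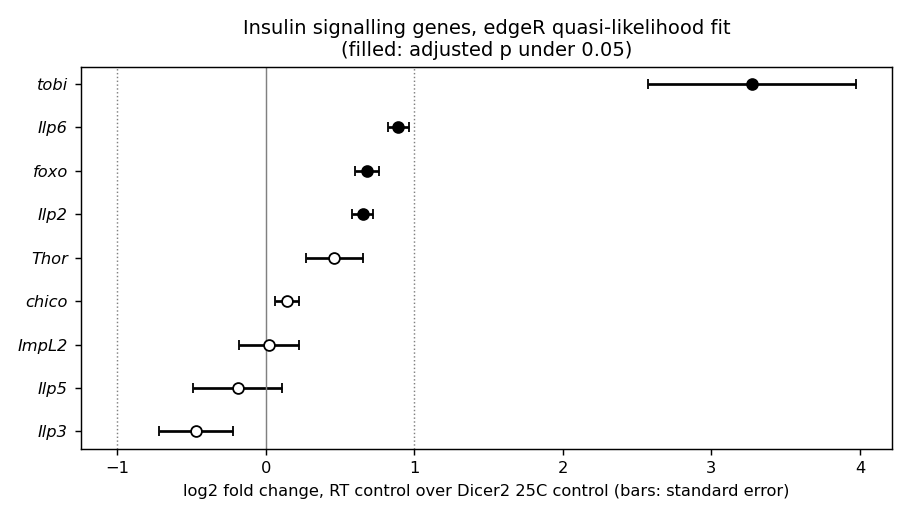
Log2 fold changes of the 9 members, RT control over Dicer2 25C control, on the horizontal axis, with standard errors from the edgeR fit; filled points have an adjusted p under 0.05, and dotted lines mark a log2 fold change of 1 in either direction. *tobi* lies at 3.27 with the widest bar, *Ilp6*, *foxo* and *Ilp2* lie between 0.65 and 0.89 with narrow bars, and *ImpL2* lies at 0.02.

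Levels of different members were compared per kilobase of annotated exon. In the RT control, *Thor* was the highest at 452 ± 112 CPM per kilobase, followed by *Ilp2* at 160 ± 7.32 and *tobi* at 50.9 ± 44.0 (SD, n = 3 each). *tobi* overlapped *foxo* at 26.7, which overlapped *chico* at 26.4. Below them lay *Ilp6* at 23.7, *ImpL2* at 21.99, *Ilp5* at 15.5 and *Ilp3* at 13.5 CPM per kilobase, each of which overlapped the next. In the Dicer2 25C control, *Thor* at 329 ± 38.0 and *Ilp2* at 102 ± 6.60 CPM per kilobase again came first. *chico* at 23.9, *ImpL2* at 21.6, *Ilp3* at 18.6, *Ilp5* at 17.7 and *foxo* at 16.7 CPM per kilobase followed, each overlapping the next. *Ilp6* at 12.8 and *tobi* at 5.26 CPM per kilobase came last in that group, each apart from its neighbour. The place of *tobi* in the RT control rested on replicate 1, at 102 CPM per kilobase. Without that library, left out after the values were seen, *tobi* averaged 25.5 CPM per kilobase in the RT control, level with *foxo* at 25.6 and *chico* at 25.2.

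The 4 further lists, also chosen with earlier results known, held 78 other genes of the pathway and its surroundings, of which 70 were tested. Of these, 5 passed and all 5 were higher in the RT control. Over all tested genes, 10.1% passed in either direction and 5.28% passed as higher in the RT control. The 22 tested genes of the insulin branch, among them *Akt*, *Pdk1*, the kinase subunits *Pi3K92E* and *Pi3K21B* and the adaptor *Lnk*, had no gene past the edgeR test, 5 at an unadjusted p under 0.05, 1 past DESeq2 and 0 past edgeR's likelihood ratio test after adjustment. Their log2 fold changes ran from -0.72 for *conv*, which encodes a binding partner of the peptides, to 0.47 for *srl*, the fly PGC-1 (adjusted p = 0.13 and 0.073). Their median was 0.03. *Akt* was at 95.7, 83.0 and 79.6 CPM in the RT control, against 71.5, 75.1 and 66.4 CPM in the Dicer2 25C control, a log2 fold change of 0.28 that did not pass (adjusted p = 0.095, edgeR).

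In the TOR branch, 1 of 23 tested genes passed, the AMPK beta subunit *alc*, and the median log2 fold change was 0.13. The share of all tested genes that passed was 10.1% in either direction and 5.28% as higher in the RT control. *alc* was at 224, 185 and 192 CPM in the RT control, against 149, 156 and 151 CPM in the Dicer2 25C control (log2 fold change 0.40, adjusted p = 0.041, edgeR). Among signals to the insulin-producing cells and their receptors, 1 of 17 tested genes passed, with a median of -0.08. This was *CCHa2*, a peptide that stimulates the insulin-producing cells, at 43.6, 47.2 and 48.0 CPM in the RT control and 36.7, 31.9 and 33.0 CPM in the Dicer2 25C control (log2 fold change 0.45, adjusted p = 0.025, edgeR). Its receptor *CCHa2-R* had a log2 fold change of -0.41 and did not pass (adjusted p = 0.052, edgeR). *Akh*, the adipokinetic hormone of the corpora cardiaca, was between 0.142 and 0.341 CPM over the 6 libraries.

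The list of fasting and sugar response genes had the highest median of the 4, at 0.69, with 3 of 8 tested genes past the test. All 3 were higher in the RT control, where 5.28% of all tested genes passed in that direction and 10.1% in either. The sugar-induced factor *sug* was at 106, 78.1 and 90.9 CPM in the RT control, against 25.5, 34.8 and 55.9 CPM in the Dicer2 25C control (log2 fold change 1.24, adjusted p = 0.041, edgeR). The fatty acid synthesis gene *ACC* was at 1518, 899 and 933 CPM in the RT control, against 592, 606 and 490.5 CPM in the Dicer2 25C control (0.99, adjusted p = 0.041). *bigmax*, the partner of the sugar sensor Mondo, was at 36.2, 37.1 and 37.5 CPM in the RT control, against 25.4, 29.1 and 29.3 CPM in the Dicer2 25C control (0.40, adjusted p = 0.029). The 5 calls of these lists all fell away in each of the fits without replicate 2 or 3 of the RT control or replicate 1 or 2 of the Dicer2 25C control. Without replicate 1 of the RT control 7 genes of the 4 lists passed, but not *sug* (adjusted p = 0.063, edgeR), and without replicate 3 of the Dicer2 25C control 17 did, but not *ACC* (adjusted p = 0.064, edgeR). *bigmax* also lost its call with upper quartile and library total scaling (adjusted p = 0.051 and 0.064, edgeR).

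**Figure D4:**
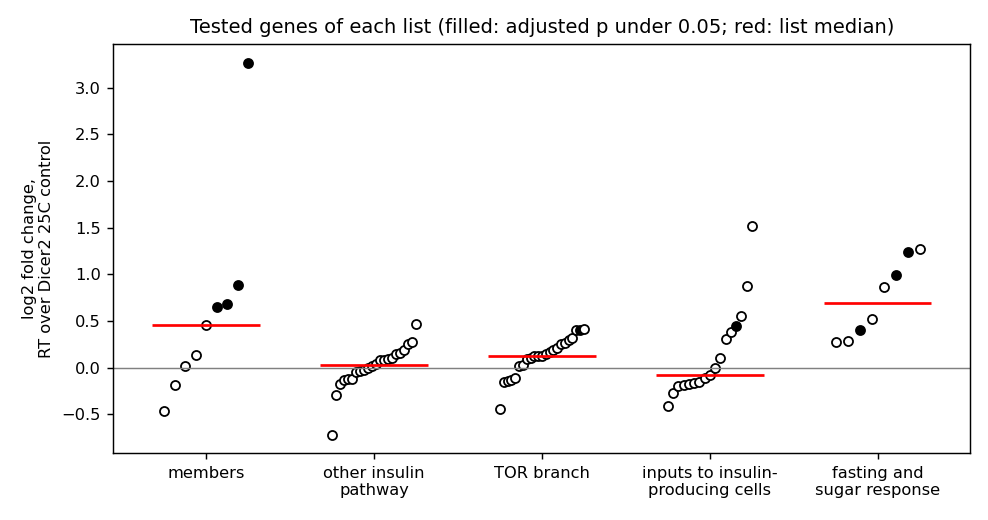
Log2 fold changes, RT control over Dicer2 25C control, of the tested genes of each list, sorted within the list; filled points have an adjusted p under 0.05 in edgeR and red lines are list medians. The members and the fasting and sugar response genes have medians of 0.46 and 0.69, and the medians of the other lists lie between -0.08 and 0.13.

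Some genes of the lists, named after their values were seen, were also high in replicate 1 of the RT control, and others were not. The lipase gene *bmm* was at 324, 74.9 and 98.7 CPM in the RT control, against 60.8, 74.4 and 71.4 CPM in the Dicer2 25C control. *Lst*, which encodes a hormone that restrains insulin release, was at 205, 73.9 and 76.9 CPM in the RT control, against 29.5, 50.9 and 43.2 CPM in the Dicer2 25C control. The lipase *Lip4* and the adiponectin receptor *AdipoR* were likewise highest in that library, at 54.1 and 897 CPM. None of these 4 genes passed the test (adjusted p from 0.072 to 0.16, edgeR). The satiety peptide gene *fit* went the other way, at 36.3, 109.8 and 102 CPM in the RT control, against 67.8, 73.5 and 59.2 CPM in the Dicer2 25C control. *Yp1* was also lowest there among the RT libraries, at 14075 CPM where the other 2 were at 20799.8 and 20706 CPM.

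**Figure D5:**
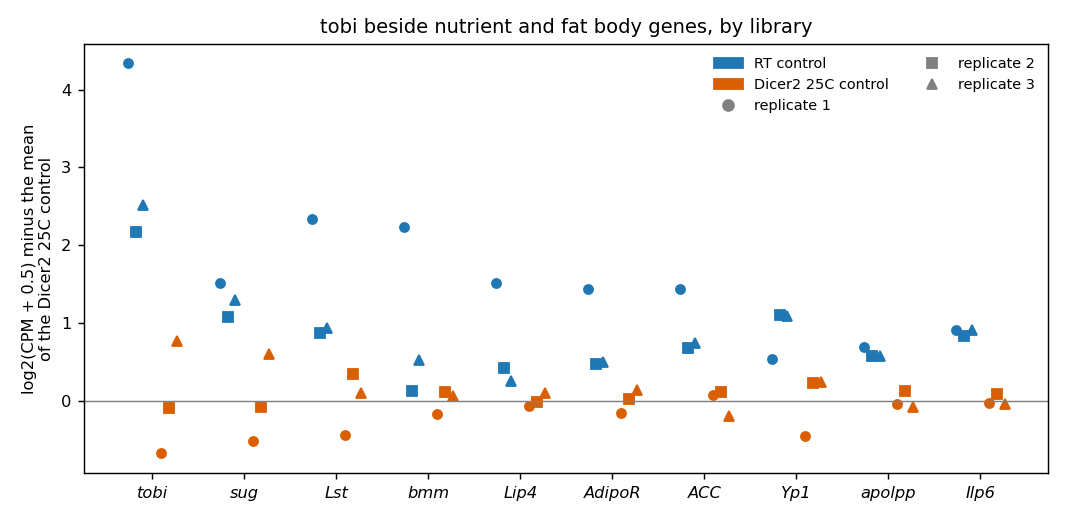
Difference of log2(CPM + 0.5) from the mean of the Dicer2 25C control for *tobi*, 5 genes of nutrient response or lipid metabolism, the hormone gene *Lst*, the fat body markers *Yp1* and *apolpp*, and *Ilp6*, with the RT control left of the Dicer2 25C control for each gene; symbols are replicates. Replicate 1 of the RT control is the highest library for *tobi*, *sug*, *Lst*, *bmm*, *Lip4*, *AdipoR*, *ACC* and *apolpp*, but not for *Yp1* or *Ilp6*.

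Likeness to a member was measured as the mean absolute difference of centred log2(CPM + 0.5) over the 6 libraries. The 5 tested genes nearest to *Ilp2* were *achi*, *DhpD*, *Rtel1*, *CG14823* and *CG10352*, with mean differences from 0.045 to 0.063 log2 units. The nearest to *tobi* were *Sodh1*, *Hao*, *Ance-4*, the unnamed row FBgn0039255 and *pug*, with mean differences from 0.47 to 0.541. *Sodh1*, a sorbitol dehydrogenase gene, was at 542, 63.9 and 82.9 CPM in the RT control, against 20.6, 31.4 and 44.5 CPM in the Dicer2 25C control. The order of its 6 libraries was the same as that of *tobi*, which its choice as the nearest gene over these libraries favours.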

How the data were processed

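The authors trimmed single-end reads with Trimmomatic, aligned them with TopHat2 to a release 6 fly genome and counted reads per gene with HTSeq; the deposited values are raw counts, 1 file per library, not normalized and not pooled. The counters of reads given to no gene were left out; reads on no gene made up between 3.16% and 4.76% and ambiguous reads between 2.36% and 3.62%. Of 17559 genes, 17253 matched BDGP6.54 of the same assembly, which gave symbols, coordinates and exon lengths. Groups and replicate numbers came from the sample labels.

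Counts were fitted with edgeR 4.0.16 in R 4.3.3 (TMM, default expression filter, quasi-likelihood test, RT control over Dicer2 25C control), with Benjamini-Hochberg adjustment over all 10187 tested genes. Standard errors were derived from the log2 fold change and its F statistic. The fit was tested on simulated data. Alternatives were other normalizations (RLE, upper quartile, library total), no filter or at least 10 counts in every library, DESeq2 1.42.0, the likelihood ratio test, the replicate number as a block, and each library left out. Named genes were the members, the other insulin-like peptides, up to 8 genes past the test per list and the 5 genes nearest to *Ilp2* and to *tobi*, the member with the widest range; *Akt*, *srl*, *conv*, *CCHa2-R*, *Akh*, *fit*, *bmm*, *Lst*, *Lip4* and *AdipoR* were named after their values were seen. The members and lists were chosen with earlier results of these data known. Of the 78 genes of the other lists, 75 were matched. Gene and protein sequences were not used here.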

Additional observations from a re-analysis of the deposited data

How the results depend on the processing

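Of the 9 members, *Ilp6* kept its call in all 14 alternatives, while *Ilp2* and *foxo* kept theirs in 12 and 11 and *tobi* in 9. Members past the test numbered 4, between 1 and 5 with a library left out, 2 with the replicate block and 1 with a log2 fold change above 1 required. Other pathway genes past the test numbered 5, between 0 and 17 with a library left out, 17 with DESeq2, 9 with the likelihood ratio test, 0 with the replicate block and 1 with the fold required. Genes called with the fold numbered 287 (46.0% of them higher in the RT control), between 33 and 438 with a library left out, 437 with DESeq2, 495 with the likelihood ratio test, 91 with the replicate block and 1030 at any fold; 32.4% were higher in the RT control when scaled by library total. The cause of these moves was not tested. The replicate numbers did not pair the libraries: same-numbered libraries deviated with correlations from -0.082 to 0.005. With the block, *foxo* had 0.68 (adjusted p = 0.053, edgeR) and *tobi* 2.97 (adjusted p = 0.097, edgeR).

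Among the members, *Ilp1*, *Ilp8*, *alc*, *CCHa2*, *sug*, *ACC* and *bigmax*, the genes run under the alternatives besides *Dcr-2*, only *ImpL2*, *Ilp1* and *Ilp5*, which did not pass, changed direction. *ImpL2* had -0.04 with upper quartile, -0.08 with library total scaling, -0.01 with the replicate block, -0.21 without replicate 1 of the RT control and -0.08 without replicate 1 of the Dicer2 25C control. *Ilp1* had -0.01 with upper quartile, -0.06 with library total scaling, -0.09 without replicate 2 of the RT control and -0.05 without replicate 1 of the Dicer2 25C control. *Ilp5* had 0.01 without replicate 1 of the RT control. With a library left out, *Ilp5* ranged from -0.44 to 0.01, *ImpL2* from -0.21 to 0.18 and *Ilp1* from -0.09 to 0.16. *Ilp4* and *Ilp7* were too low in counts to be tested, and *Ilp8* had no value with at least 10 counts in every library.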
